A study of Schizosaccharomyces pombe with 261 samples.

Results

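The change in mRNA after 5 min of heat was compared between fission yeast (Schizosaccharomyces pombe) libraries labelled atf1Δ and wild-type (WT) libraries. For each gene the log2 change between 5 and 0 min in the atf1Δ label was set against the same change in WT, and the gap between both changes is called the difference of responses. The question is how far the early heat response depends on Atf1. It rests on 12 of the 39 mRNA-seq libraries, out of 261 samples in the series, with 3 libraries in each of 4 groups. The groups are the label atf1Δ at 5 min and at 0 min, both from series RNA3, and WT at 5 min and at 0 min, both from series RNA2. WT of series RNA1, again 3 libraries at each time, gave a second reference. All strains are h+ and carry ade6-DN/N with leu1-32 and ura4-DS/E, and all hold marker genes inserted at a centromere (imr1L::ura4+ and otr1R::ade6+). The deletion strain has atf1Δ::KanMX6 in addition. Cultures in YES medium at 30 °C were sampled in mid-log phase, either directly or after a shift to 37.5 °C with shaking. Polyadenylated RNA was sequenced, and the labels do not say whether the 3 libraries of a group came from separate cultures, so p-values measure only the spread between these libraries.

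Atf1 is a bZIP transcription factor that works as a pair with Pcr1. In fission yeast, stress activates the MAP kinase Sty1, which phosphorylates Atf1, and the pair switches on stress genes through cyclic-AMP response elements in their promoters. Heat also acts through a separate factor, Hsf1, which binds heat shock elements and drives genes for chaperones, the proteins that refold other proteins.

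The 12 libraries held 8714493 to 11931806 counts in genes. Levels are given as CPM, counts per 1000000 of a library's gene counts after TMM scaling. They are not divided by gene length, so they compare libraries and not genes. Counts for atf1 itself were still present in the libraries labelled atf1Δ, at 176, 163 and 165 CPM at 5 min and 143, 120 and 122 CPM at 0 min, against 633, 557 and 525 CPM at 5 min and 206, 223 and 212 CPM at 0 min in WT of series RNA2. They were below every WT library of the same time in that series, but at 0 min they lay in the range of WT of series RNA1 (118, 127 and 146 CPM). The counts do not say which stretch of the gene the reads came from. None of the RNA3 libraries used here is WT, so the deletion and the series cannot be told apart in any comparison with WT. Of 10 markers of mating type and sexual differentiation, 0 passed edgeR's quasi-likelihood test in the difference of responses (2 at an unadjusted p under 0.05), and none was at 0 in all libraries of a group. Their summed level was higher with the label atf1Δ, at 440 to 562 CPM at 5 min and 368 to 444 CPM at 0 min, against 180 to 233 CPM at 5 min and 163 to 181 CPM at 0 min in WT of series RNA2. Their part in the results below was not tested.

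Promoters of 5 genes described below are shown as examples. They do not stand for all genes described, several of which had none of the marked elements. Capitals mark TGACGT or its reverse complement ACGTCA, the core of the element that Atf1 and related factors bind, and in ssa1 the heat shock element GAANNTTC. The sequences are the 300 bases before the annotated gene start in RefSeq, build ASM294v3, each read 5′ to 3′ on the strand of the gene: chrII:201981-202280 (plus) for wwm3, chrIII:954930-955229 (plus) for smp4, chrII:3532628-3532927 (plus) for rsv2, chrIII:1301637-1301936 (plus) for srk1 and chrI:2297965-2298264 (minus) for ssa1. For wwm3, smp4, rsv2 and ssa1 this start lies downstream of the start in the annotation of the authors' build, ASM294v2.
wwm3: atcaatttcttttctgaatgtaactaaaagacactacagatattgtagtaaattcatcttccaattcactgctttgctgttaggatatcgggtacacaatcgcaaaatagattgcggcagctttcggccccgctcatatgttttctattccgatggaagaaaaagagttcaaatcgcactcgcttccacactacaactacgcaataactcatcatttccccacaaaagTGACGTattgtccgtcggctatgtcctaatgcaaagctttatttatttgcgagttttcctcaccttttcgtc
smp4: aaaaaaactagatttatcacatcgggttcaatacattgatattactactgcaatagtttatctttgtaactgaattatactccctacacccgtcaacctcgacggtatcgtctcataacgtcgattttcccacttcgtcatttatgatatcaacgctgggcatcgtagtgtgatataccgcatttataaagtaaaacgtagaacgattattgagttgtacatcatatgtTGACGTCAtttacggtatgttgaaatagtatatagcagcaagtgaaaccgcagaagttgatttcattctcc
rsv2: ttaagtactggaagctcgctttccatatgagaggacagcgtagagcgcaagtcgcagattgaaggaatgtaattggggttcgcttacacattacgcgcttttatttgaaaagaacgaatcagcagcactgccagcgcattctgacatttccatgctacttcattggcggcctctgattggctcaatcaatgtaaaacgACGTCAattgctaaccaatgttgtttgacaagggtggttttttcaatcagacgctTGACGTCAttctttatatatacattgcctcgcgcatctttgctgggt
srk1: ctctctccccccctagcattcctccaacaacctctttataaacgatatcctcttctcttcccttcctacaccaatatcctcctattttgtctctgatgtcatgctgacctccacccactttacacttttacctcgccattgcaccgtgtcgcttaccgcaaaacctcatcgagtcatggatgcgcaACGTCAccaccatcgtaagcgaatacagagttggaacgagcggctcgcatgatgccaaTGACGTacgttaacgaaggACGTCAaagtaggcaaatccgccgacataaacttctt
ssa1: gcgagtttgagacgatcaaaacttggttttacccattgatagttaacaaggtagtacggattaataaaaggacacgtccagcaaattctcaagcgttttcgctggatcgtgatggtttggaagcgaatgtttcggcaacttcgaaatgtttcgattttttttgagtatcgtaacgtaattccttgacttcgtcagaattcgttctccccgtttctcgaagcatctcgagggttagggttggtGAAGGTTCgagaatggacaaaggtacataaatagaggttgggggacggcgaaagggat
In wwm3 the element began 72 bases before the gene start. In smp4 and in rsv2 the capitals include the palindrome TGACGTCA, which counts as a match on each strand, and srk1 held 3 separate matches. The ssa1 window had none of the Atf1 elements and 1 heat shock element.

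Of 6172 genes tested, 123 had a lower response to heat with the label atf1Δ than in WT of series RNA2 (1.99% of the genes tested). A higher response was found in 5 (0.081%). Both counts are at adjusted p under 0.05 by edgeR's quasi-likelihood test with Benjamini-Hochberg adjustment. Responses are signed, so a lower one can be a smaller rise or a larger fall, and a higher one a larger rise or a smaller fall. The difference was at least 2-fold in 81 of the 123. At an unadjusted p under 0.05 the counts were 426 lower and 100 higher, and the median difference over all genes was -0.02 on the log2 scale. The 123 comprised 107 coding genes, 13 long non-coding RNAs, 2 pseudogenes and 1 gene with no class in the annotation. Their median response was -0.02 with the label atf1Δ and 1.39 in WT of series RNA2, which follows from how they were chosen. In the libraries of WT series RNA1, which had no part in that choice, 118 of the 123 rose with heat and 3 fell, where 24.9% of all genes rose and 23.5% fell, and their median response was 2.12. With the label atf1Δ, 19 of the 123 still rose, 24 fell and 80 did neither. In WT of series RNA2, 110 of them rose and 2 fell. In bulk RNA, fewer cells that express a gene and less RNA per cell cannot be told apart.

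**Figure D1:**
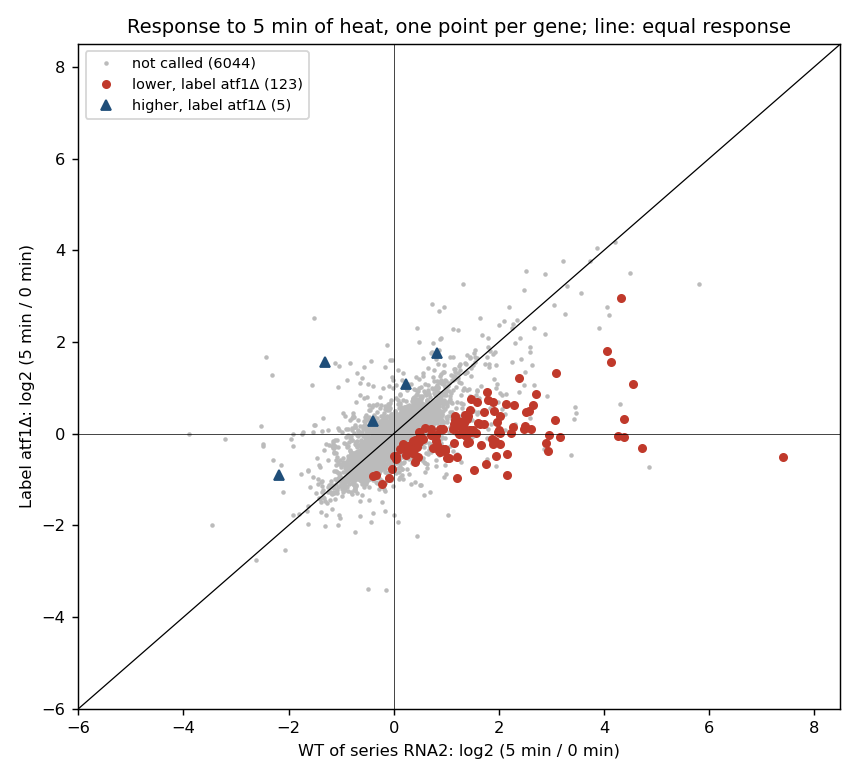
Log2 change after 5 min of heat with the label atf1Δ (vertical axis) against the change in WT of series RNA2 (horizontal axis), with 1 point per tested gene and a line of equal response. The 123 red points lie below the line, most of them close to a response of 0 with the label atf1Δ, and the 5 blue triangles lie above it.

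In the first group of genes, heat induction was missing while the unheated level was close to WT of series RNA2. rtc3 (SPBC21C3.19, chrII:3829961-3830902, plus strand, ASM294v2), an SBDS family protein, was at 65.3, 58.2 and 60.0 CPM at 5 min and 66.1, 61.3 and 61.3 CPM at 0 min with the label atf1Δ, against 1552, 1569 and 1022 CPM at 5 min and 78.8, 78.1 and 58.2 CPM at 0 min in WT. Heated WT stood far above the other 3 groups, which overlapped one another. Its difference of responses was -4.31 ± 0.33 (log2, SE, adjusted p = 6.44e-11) against series RNA2 and -6.83 ± 0.35 against series RNA1. smp4 (SPCPB16A4.07, chrIII:955171-955906, plus strand), whose promoter is shown above, was at 19.1, 20.0 and 18.1 CPM at 5 min and 14.9, 14.3 and 16.5 CPM at 0 min with the label atf1Δ, against 278, 294 and 198 CPM at 5 min and 10.8, 15.2 and 11.2 CPM at 0 min in WT. Again only the heated WT libraries were high, and the difference was -4.05 ± 0.41 (adjusted p = 3.27e-08). SPAC22F8.05, annotated as an alpha,alpha-trehalose-phosphate synthase (chrI:4791892-4795263, plus strand), was at 71.6, 72.8 and 70.8 CPM at 5 min and 75.4, 73.8 and 68.8 CPM at 0 min with the label atf1Δ, against 683, 504 and 431 CPM at 5 min and 75.5, 65.1 and 67.4 CPM at 0 min in WT, a difference of -2.98 ± 0.31 (adjusted p = 4.52e-08). Its 3 low groups overlapped and heated WT stood apart. Unheated means were lower in WT of series RNA1, at 22.8 CPM for rtc3, 8.53 CPM for smp4 and 37.0 CPM for SPAC22F8.05. With the label atf1Δ they were 62.9, 15.2 and 72.7 CPM.

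ish1 (SPBC365.12c), a nuclear envelope protein, and SPBC11C11.06c, an uncharacterized protein, behaved alike in this respect. ish1 was at 78.5, 80.6 and 75.5 CPM at 5 min and 69.9, 66.8 and 55.0 CPM at 0 min with the label atf1Δ, against 604, 432 and 230 CPM at 5 min and 56.8, 52.2 and 41.7 CPM at 0 min in WT, and its difference was -2.78 ± 0.41 (adjusted p = 1.84e-05). SPBC11C11.06c differed by -3.24 ± 0.35 (adjusted p = 1.09e-07). In unheated WT of series RNA1 the means were 33.4 CPM for ish1 and 42.2 CPM for SPBC11C11.06c, against 63.9 and 47.5 CPM with the label atf1Δ. The calcium-transporting ATPase gene cta3 (SPBC839.06) was low throughout, at 4.92, 3.86 and 2.98 CPM at 5 min and 5.46, 4.52 and 5.25 CPM at 0 min with the label atf1Δ, against 55.7, 27.6 and 22.9 CPM at 5 min and 3.98, 4.58 and 5.16 CPM at 0 min in WT. Its heated WT libraries spread more than 2-fold but all lay above the rest, and the difference was -3.32 ± 0.53 (adjusted p = 8.33e-05). An antisense RNA covers 76.2% of cta3, and which strand was counted is not stated, so that value is uncertain.

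In the second group the unheated level was itself above WT. wwm3 (SPBC660.05, chrII:202257-203623, plus strand) had the lowest difference of all 6172 genes. It was at 7.27, 4.95 and 5.86 CPM at 5 min and 9.99, 8.12 and 7.57 CPM at 0 min with the label atf1Δ, against 296, 226 and 208 CPM at 5 min and 1.63, 0.728 and 1.85 CPM at 0 min in WT. The 2 atf1Δ-labelled groups lay between unheated and heated WT without overlapping either, and the difference was -7.92 ± 0.61 (adjusted p = 6.44e-11), against -7.82 ± 0.57 with series RNA1 as the reference. mug153 (SPACUNK4.19, chrI:2874956-2877487, plus strand) was higher with the label atf1Δ at both times, at 53.0, 51.4 and 47.6 CPM at 5 min and 55.1, 63.6 and 56.1 CPM at 0 min, against 10.0, 8.64 and 5.55 CPM at 5 min and 1.02, 1.14 and 1.07 CPM at 0 min in WT. Its lower response, -3.10 ± 0.41 (adjusted p = 3.59e-06), thus came with a steady high level and not with a low heated one.

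srk1 (SPCC1322.08, chrIII:1301937-1305468, plus strand), a kinase activated by Sty1, was at 192, 206 and 203 CPM at 5 min and 201, 202 and 190 CPM at 0 min with the label atf1Δ, against 358, 313 and 213 CPM at 5 min and 70.7, 70.3 and 75.4 CPM at 0 min in WT. All 6 atf1Δ-labelled libraries lay between the unheated and the heated WT libraries, and the difference was -2.01 ± 0.28 (adjusted p = 8.73e-06). SPACUNK4.17, a NAD-binding dehydrogenase family gene next to mug153, was at 49.0, 43.1 and 42.7 CPM at 5 min and 45.7, 39.9 and 39.9 CPM at 0 min with the label atf1Δ, against 143, 135 and 66.0 CPM at 5 min and 20.9, 18.5 and 16.7 CPM at 0 min in WT, with a difference of -2.52 ± 0.39 (adjusted p = 4.73e-05). It showed the same steady intermediate level. A non-coding RNA on the other strand covers 80.2% of it.

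In the third group both levels were below WT. gpx1 (SPBC32F12.03c, chrII:2788863-2789614, minus strand), a glutathione peroxidase that removes hydrogen peroxide, was at 6.20, 9.01 and 9.23 CPM at 5 min and 7.96, 10.9 and 9.09 CPM at 0 min with the label atf1Δ, against 445, 416 and 258 CPM at 5 min and 158, 140 and 117 CPM at 0 min in WT. Every library labelled atf1Δ was below every WT library, heated or not, and the difference of responses was -1.62 ± 0.28 (adjusted p = 0.000201). gpd1 (SPBC215.05, chrII:4035580-4037342, plus strand), the glycerol-3-phosphate dehydrogenase of glycerol synthesis, was at 267, 247 and 249 CPM at 5 min and 219, 222 and 202 CPM at 0 min with the label atf1Δ, against 2916, 2469 and 2481 CPM at 5 min and 1109, 1071 and 1071 CPM at 0 min in WT. It too stayed below unheated WT, with a difference of -1.03 ± 0.22 (adjusted p = 0.00366). The catalase gene ctt1 (SPCC757.07c) was at 74.7, 50.7 and 46.0 CPM at 5 min and 62.8, 47.2 and 41.4 CPM at 0 min with the label atf1Δ, against 782, 634 and 420 CPM at 5 min and 122, 109 and 93.0 CPM at 0 min in WT, a difference of -2.33 ± 0.35 (adjusted p = 2.84e-05).

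**Figure D2:**
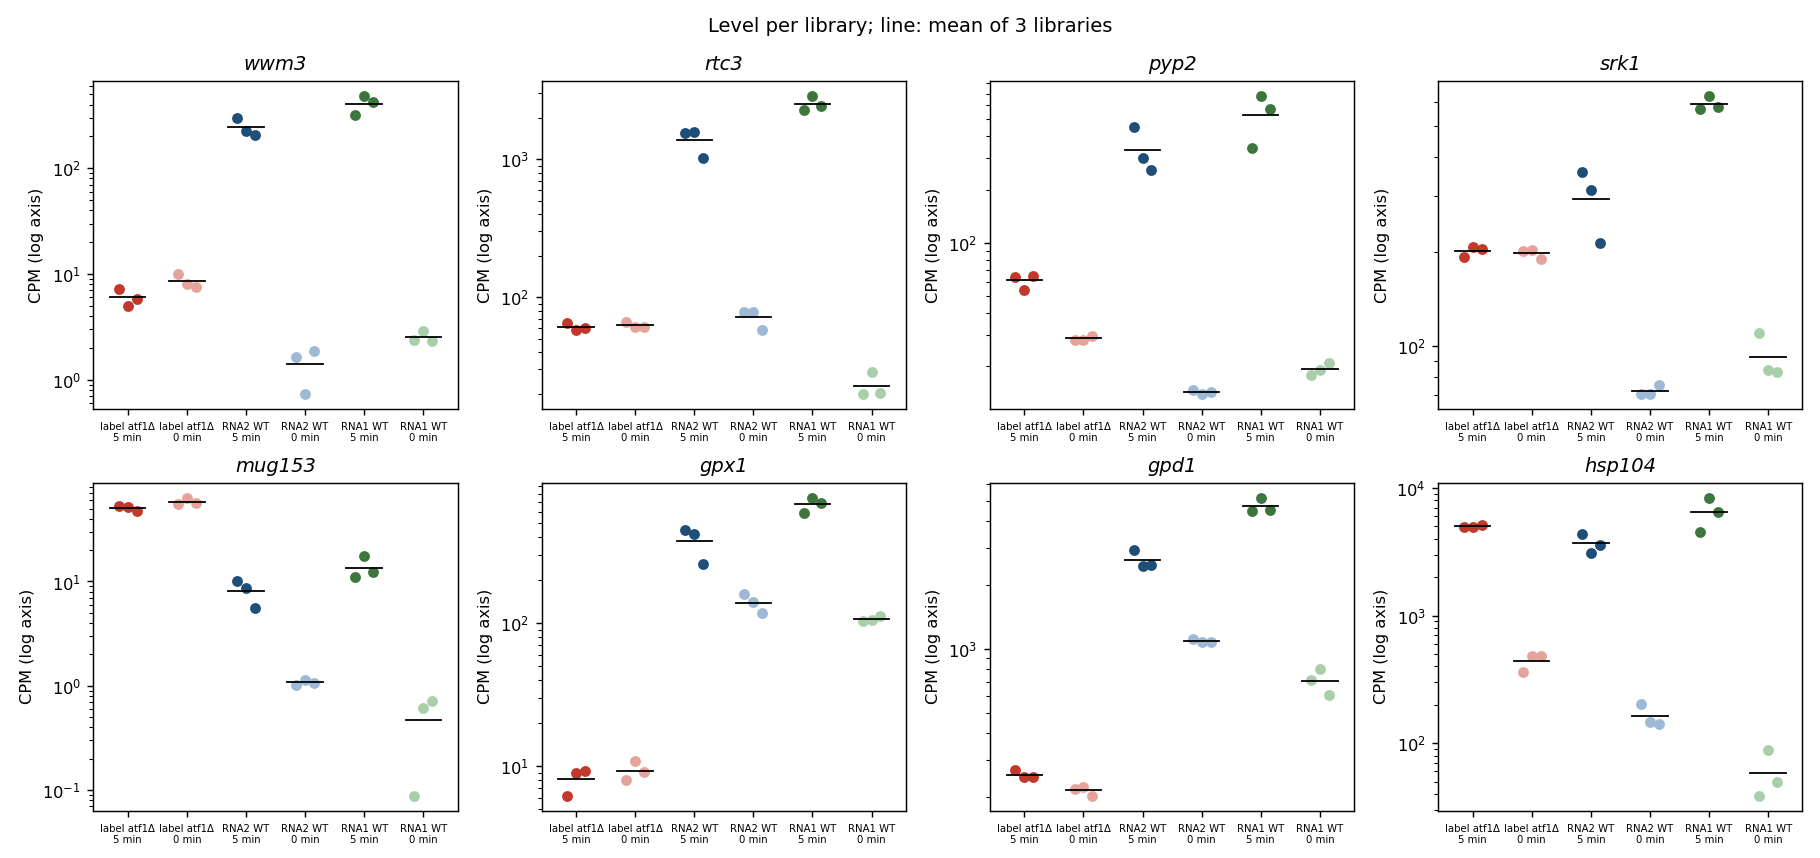
CPM on log axes in every library of the label atf1Δ (5 and 0 min), WT of series RNA2 and WT of series RNA1, with a line at the mean of 3 libraries, for 8 genes. In rtc3 the atf1Δ-labelled libraries stay at the unheated WT level of series RNA2. In mug153 they lie above all WT libraries, and in gpx1 and gpd1 below all WT libraries. In hsp104 they rise with heat, from an unheated level above that of both WT series.

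Over all 123 genes, 89 were lower at 5 min with the label atf1Δ than in WT of series RNA2 (25% of all genes were) and 53 were higher at 0 min (20.8% of all genes were). Of the 123, 28 were lower at 0 min (21.5% of all genes were). They split into 42 that were lower at 5 min with no call at 0 min, 28 lower at both times, 19 lower at 5 min and higher at 0 min, and 34 higher at 0 min with no call at 5 min. Those calls come from the same libraries as the difference of responses and describe it.

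**Figure D3:**
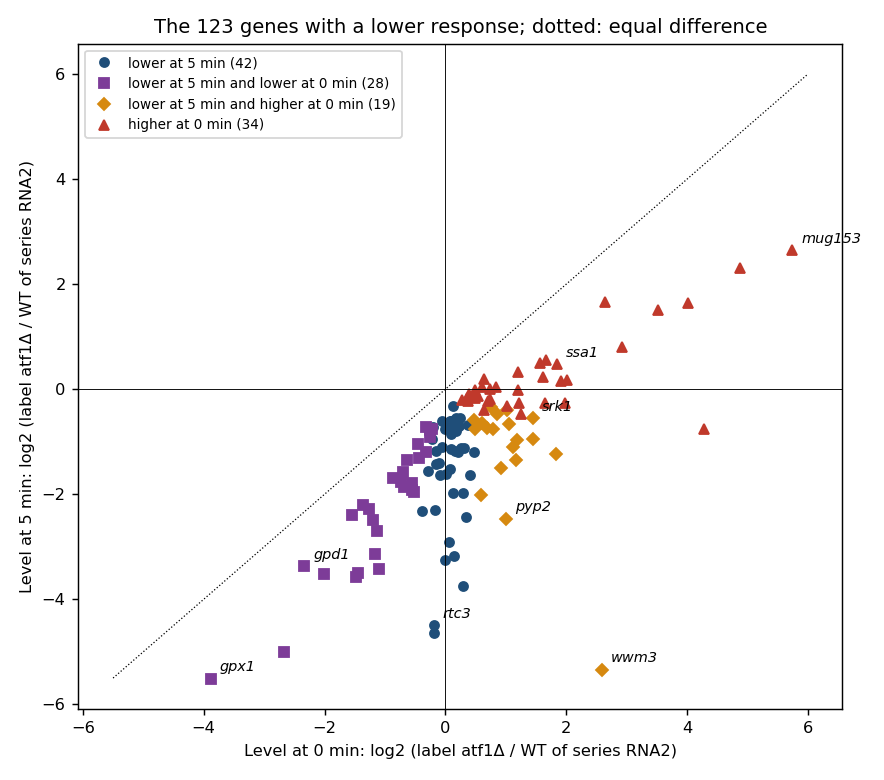
Log2 ratio of the label atf1Δ to WT of series RNA2 at 5 min (vertical axis) and at 0 min (horizontal axis) for the 123 genes, with symbols for the 4 patterns of calls and a dotted line of equal ratio. The genes spread from gpx1, low at both times, through rtc3, low at 5 min, to mug153, high at both times.

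Genes of the Sty1 pathway were counted next. Of 17 tested, 5 passed the test, all with a lower response (1.99% of all genes had one), and the list median was -0.04 against -0.02 over all genes. The 5 were pyp1 and pyp2, tyrosine phosphatases that switch Sty1 off, the phosphatase gene ptc1, srk1 and the phosphorelay gene mpr1. pyp2 (SPAC19D5.01, chrI:5202366-5205202, plus strand) was at 64.2, 54.1 and 64.7 CPM at 5 min and 28.2, 27.9 and 29.8 CPM at 0 min with the label atf1Δ, against 450, 302 and 257 CPM at 5 min and 14.6, 13.8 and 14.3 CPM at 0 min in WT. It still rose with heat, by 1.09 on the log2 scale, but the difference was -3.47 ± 0.41 (adjusted p = 5.16e-07). pyp1 differed by -1.57 ± 0.26 (adjusted p = 0.000144) and mpr1 by -1.26 ± 0.21 (adjusted p = 9.37e-05).

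Among 18 stress transcription factor genes 4 passed, all with a lower response (1.99% of all genes), and the median was -0.11. They were atf1 itself, pcr1, atf21 and rsv2. pcr1 (SPAC21E11.03c, chrI:4252142-4253622, minus strand), the partner of Atf1, was at 107, 91.7 and 85.8 CPM at 5 min and 80.9, 68.9 and 67.1 CPM at 0 min with the label atf1Δ, against 331, 276 and 263 CPM at 5 min and 86.3, 72.8 and 56.0 CPM at 0 min in WT. The unheated libraries overlapped and the heated ones did not, with a difference of -1.63 ± 0.23 (adjusted p = 8.97e-06). rsv2 (SPBC1105.14), a zinc finger factor gene, was at 204, 184 and 179 CPM at 5 min and 54.4, 53.6 and 53.9 CPM at 0 min with the label atf1Δ, against 856, 668 and 697 CPM at 5 min and 55.4, 42.5 and 34.8 CPM at 0 min in WT, so it still rose, by 1.81 on the log2 scale, but less (-2.26 ± 0.37, adjusted p = 8.88e-05). atf21, which encodes another Atf/CREB factor, was near the limit of counting except in heated WT, at 0.748, 0.396 and 0.794 CPM at 5 min and 0.833, 0.586 and 0.624 CPM at 0 min with the label atf1Δ, against 23.6, 15.4 and 10.0 CPM at 5 min and 1.53, 0.208 and 0.585 CPM at 0 min in WT (-4.45 ± 1.00, adjusted p = 0.00635). A non-coding RNA on the other strand spans the whole of atf21.

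Of 30 core stress genes listed as under Atf1, 16 passed, all with a lower response (1.99% of all genes), and the median was -1.28. Besides genes given above, they included ntp1, a trehalase gene, and srx1, a sulfiredoxin gene that repairs peroxiredoxins. srx1 was at 42.3, 38.7 and 39.7 CPM at 5 min and 59.0, 57.0 and 52.6 CPM at 0 min with the label atf1Δ, against 130, 131 and 78.6 CPM at 5 min and 34.6, 28.4 and 25.9 CPM at 0 min in WT (-2.42 ± 0.27, adjusted p = 2.10e-07). The list was drawn up with earlier results of these libraries known and is no independent evidence. Among 13 trehalose and glycerol genes 3 passed, namely ntp1, gpd1 and the glycerol-3-phosphate dehydrogenase gene gut2, all with a lower response (1.99% of all genes, list median -0.13). A non-coding RNA on the other strand covers gut2. The trehalose synthase gene tps1 was not called (-0.62 ± 0.27, adjusted p = 0.476), but against WT of series RNA1 it was lower (-2.26, adjusted p = 9.02e-08). Among 26 peroxide and glutathione genes ctt1, gpx1 and srx1 passed, all lower (3 genes, against 1.99% of all genes), and the median was -0.02. Against WT of series RNA1, 7 trehalose and glycerol genes and 8 peroxide and glutathione genes were lower, where 12.4% of all genes were.

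Some further genes of the 123 are named here after their values were seen. They were picked because they were called, and no list of their pathways was counted. cgs1, the regulatory subunit of protein kinase A, differed by -2.23 ± 0.37 (adjusted p = 0.000124), and its mean was 44.5 CPM at 5 min and 44.3 CPM at 0 min with the label atf1Δ, against 95.7 CPM at 5 min and 20.3 CPM at 0 min in WT. The catalytic subunit gene pka1 (-0.93), the phosphodiesterase gene cgs2 (-1.28), and the G protein subunit genes git5 (-2.10) and gpa2 (-0.53) were also lower in response. So were pil1, eis1 and fhn1, whose products are found at eisosomes, membrane domains of the yeast cell surface. pil1 averaged 619 CPM at 5 min and 547 CPM at 0 min with the label atf1Δ, against 3017 CPM at 5 min and 1320 CPM at 0 min in WT, and differed by -1.01 ± 0.20 (adjusted p = 0.00103).

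Most chaperone genes rose with heat in both strains. Of 31 tested, 22 rose with the label atf1Δ (12.6% of all genes did) and 22 in WT of series RNA2 (14.1% of all genes did). In WT of series RNA1, 21 rose (24.9% of all genes did). The list median of the difference was 0.10, and 2 genes passed the test, both with a lower response. hsp104 (SPBC16D10.08c, chrII:3612265-3615320, minus strand), which dissolves protein aggregates, was at 4984, 4910 and 5165 CPM at 5 min and 362, 486 and 481 CPM at 0 min with the label atf1Δ, against 4385, 3097 and 3589 CPM at 5 min and 203, 148 and 142 CPM at 0 min in WT of series RNA2. Its libraries labelled atf1Δ were higher than WT at both times, and its difference was not called (-0.99 ± 0.36, adjusted p = 0.239), but it was called lower when the 12 libraries were fitted alone (-0.99, adjusted p = 0.0445). The small heat shock protein gene hsp16 was not called either (-1.51 ± 0.51, adjusted p = 0.170), though it was called without WT 0 min library 1 (-2.17, adjusted p = 0.00849). ssa1 (SPAC13G7.02c, chrI:2295580-2297981, minus strand), an Hsp70 chaperone gene, was at 4306, 4744 and 5226 CPM at 5 min and 450, 676 and 709 CPM at 0 min with the label atf1Δ, against 4070, 2864 and 3262 CPM at 5 min and 212, 170 and 127 CPM at 0 min in WT. Heated levels were above those of WT in series RNA2, a gap that was not called (0.49 on the log2 scale, adjusted p = 0.0954), and unheated levels were 1.85 higher on the log2 scale. The response was lower by the test (-1.37 ± 0.34, adjusted p = 0.0177). The call was lost on leaving out either of atf1Δ-labelled 5 min libraries 1 and 2, atf1Δ-labelled 0 min libraries 2 and 3, WT 5 min library 1 or WT 0 min library 3 (adjusted p = 0.0515 to 0.0874). The other gene called, ssp1, encodes a kinase in this species that the list took in by its symbol (-0.40 ± 0.11, adjusted p = 0.0334). The count of 2 became 0 without atf1Δ-labelled 5 min library 2 or WT 5 min library 1, and 3 without WT 0 min library 1. It was 1 without any other single library except WT 5 min library 2.

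The chaperone result depended on the WT series. Against WT of series RNA1, 18 of the 31 were lower and 1 higher (12.4% of all genes were lower and 3.68% higher in that comparison), with hsp104 at -3.28 ± 0.37 (adjusted p = 2.14e-08), hsp16 at -4.08 (adjusted p = 3.97e-07) and ssa1 at -4.51 ± 0.36 (adjusted p = 1.99e-11). Heated ssa1 was at 6052, 7460 and 6250 CPM in WT of series RNA1, above all libraries labelled atf1Δ. Against the mean of both WT series 13 of the 31 were lower (490 of all 6172 genes were). Unheated hsp104 was at 38.5, 88.5 and 49.5 CPM in WT of series RNA1, below all WT libraries of series RNA2.

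In 5 further lists no gene passed the test of the difference from WT of series RNA2, by edgeR or by DESeq2. Ribosome biogenesis and RNA polymerase I genes had 0 of 52 called. Of these, 35 fell with the label atf1Δ (17.3% of all genes did), against 32 in WT of series RNA2 (13% of all genes did). Proteasome genes had 0 of 34 called, and 28 rose with the label atf1Δ (12.6% of all genes did) against 24 in WT (14.1% of all genes did). Heterochromatin and RNA interference genes had 0 of 31 called, mating genes 0 of 22 and cytosolic ribosomal protein genes 0 of 140. At an unadjusted p under 0.05, 6 heterochromatin genes and 1 mating gene were lower and 3 ribosomal protein genes were higher. None of the ribosome biogenesis or proteasome genes differed at that level, where 426 of all 6172 genes were lower and 100 higher. Without WT 5 min library 3 the meiosis gene mei4 (1.997 on the log2 scale, adjusted p = 0.0151) and 1 ribosome biogenesis gene were called higher. Against WT of series RNA1, where 12.4% of all genes were lower and 3.68% higher, some members were called. They were 8 heterochromatin genes lower and 1 higher, 4 ribosome biogenesis genes higher, 3 proteasome genes lower, and 3 mating genes lower and 3 higher. The median difference was 0.02 for ribosome biogenesis, 0.05 for the proteasome, -0.08 for heterochromatin, 0.08 for mating and 0.13 for ribosomal proteins. dbp3, a helicase gene of ribosome assembly, showed the shared fall, at 65.1, 49.7 and 50.5 CPM at 5 min and 326, 298 and 328 CPM at 0 min with the label atf1Δ, against 63.8, 67.0 and 131 CPM at 5 min and 328, 355 and 414 CPM at 0 min in WT.

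**Figure D4:**
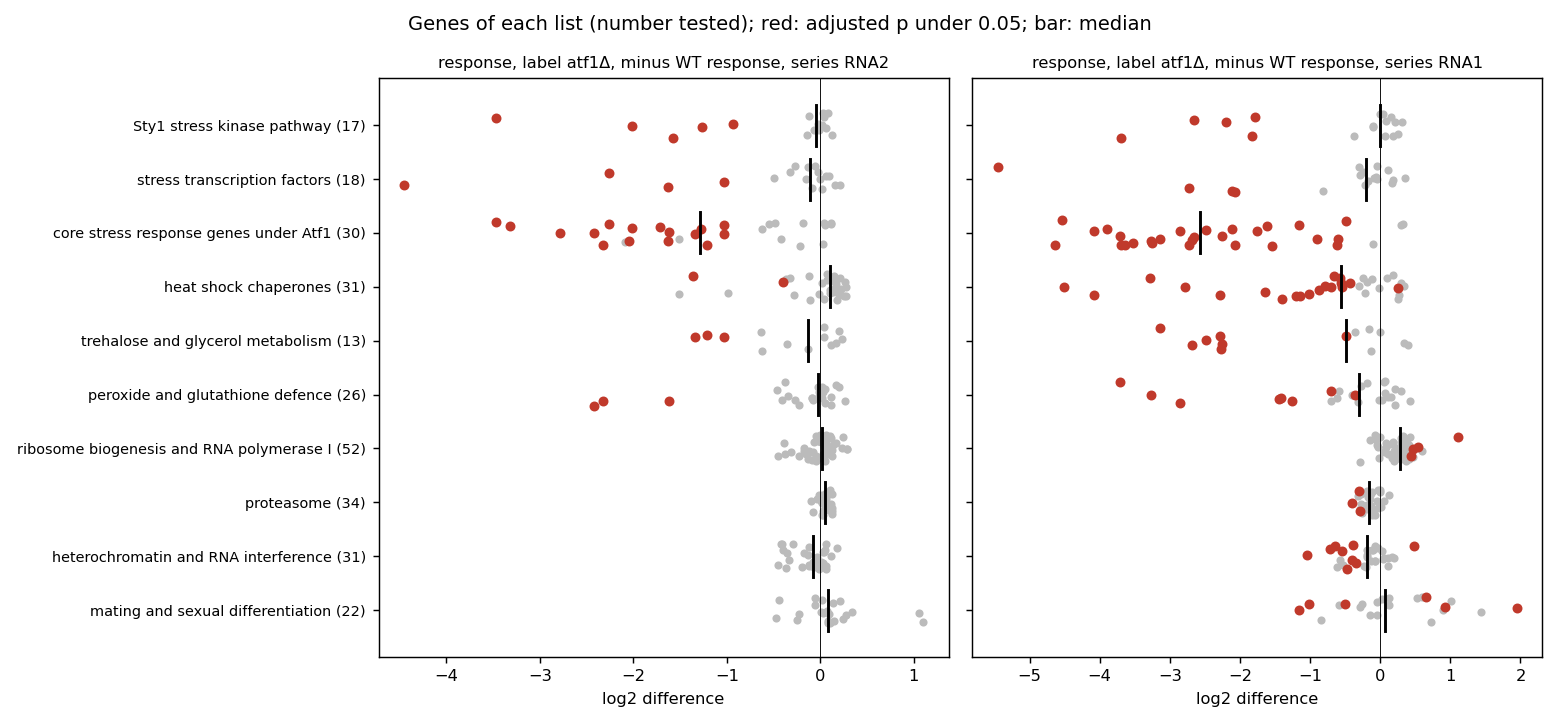
Difference of responses (log2) for each tested gene of 10 lists, against WT of series RNA2 (left) and of series RNA1 (right), with red points at adjusted p under 0.05 and a bar at the list median. The list of core stress genes has its median at -1.28 on the left and -2.57 on the right, and the chaperones move from 0.10 to -0.56.

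The genes with a higher response were few. Of the 5, 3 fell with heat in WT of series RNA2. The F-box gene pof15, for a protein that marks others for degradation, was at 7.59, 6.63 and 8.64 CPM at 5 min and 14.7, 14.6 and 13.4 CPM at 0 min with the label atf1Δ, against 12, 7.22 and 9.05 CPM at 5 min and 46.4, 43.8 and 37.2 CPM at 0 min in WT (1.28 ± 0.25, adjusted p = 0.000879). Heated levels overlapped there, and unheated levels were lower with the label atf1Δ. The DNA repair nuclease gene fan1 was at 46.3, 47.1 and 44.2 CPM at 5 min and 25.6, 20.1 and 19.6 CPM at 0 min with the label atf1Δ, against 45.05, 41.5 and 35.5 CPM at 5 min and 30.3, 35.6 and 37.6 CPM at 0 min in WT (0.84 ± 0.19, adjusted p = 0.00575). Here too the heated levels overlapped and the unheated ones did not. SPNCRNA.1624, a non-coding RNA annotated as heat shock specific, was at 38.1, 43.6 and 42.9 CPM at 5 min and 12.7, 12.9 and 11.4 CPM at 0 min with the label atf1Δ, against 18.7, 17.5 and 19.0 CPM at 5 min and 7.55, 11.4 and 12.1 CPM at 0 min in WT (0.93 ± 0.23, adjusted p = 0.0152).

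The other 2 genes were the transporter gene SPAC1399.02 (0.67 ± 0.17, adjusted p = 0.0198) and the sparsely counted SPNCRNA.726 (2.86 ± 0.60, adjusted p = 0.00264), which is named after its value was seen. Against WT of series RNA1 neither SPNCRNA.1624 (0.45, adjusted p = 0.199) nor SPAC1399.02 (0.42, adjusted p = 0.0860) nor SPNCRNA.726 (1.39, adjusted p = 0.0941) was called. SPNCRNA.1624 also lost its call without atf1Δ-labelled 0 min library 3 or WT 0 min library 2 or 3 (adjusted p = 0.0549 to 0.0982). SPAC1399.02 lost its call without atf1Δ-labelled 0 min library 1, WT 5 min library 2 or WT 0 min library 1 (adjusted p = 0.0631 to 0.101). The count of 5 became 20 without WT 5 min library 3, 10 without atf1Δ-labelled 5 min library 1 and 8 without atf1Δ-labelled 5 min library 2.

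WT of series RNA1 was then used to define heat-induced genes apart from the contrast. There were 524 genes with at least a doubling at adjusted p under 0.05, of which 328 were coding and 187 long non-coding RNAs. Of these, 93 had a lower response with the label atf1Δ than in WT of series RNA2 (17.7%, against 1.99% of all genes) and 1 a higher one. The median response of the 524 was 0.48 with the label atf1Δ and 0.91 in WT of series RNA2, and 255 rose with the label atf1Δ against 401 in WT of series RNA2. By library, their median change at 5 min was 0.47, 0.45 and 0.50 with the label atf1Δ, against 1.04, 0.87 and 0.63 in WT of series RNA2. The libraries of the label atf1Δ were all lower, and WT library 3 was the lowest of its group. The medians were 0.52, 0.49 and 0.53 with the label pcr1Δ and 0.87, 0.86 and 0.62 with the label clr4Δ. They were taken on log2(CPM + 0.5). The 430 induced genes whose difference was not called had a median response of 0.58 with the label atf1Δ and 0.83 in WT of series RNA2. Against WT of series RNA1, 294 of them were lower (12.4% of all genes were). From these 430, SPBC19C7.04c, uncharacterized, was named for its large response with the label atf1Δ. It was at 251, 217 and 219 CPM at 5 min and 13.9, 14.2 and 13.3 CPM at 0 min with that label, against 328, 202 and 465 CPM at 5 min and 29.5, 21.2 and 17.5 CPM at 0 min in WT (0.18 ± 0.39, adjusted p = 0.995).

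**Figure D5:**
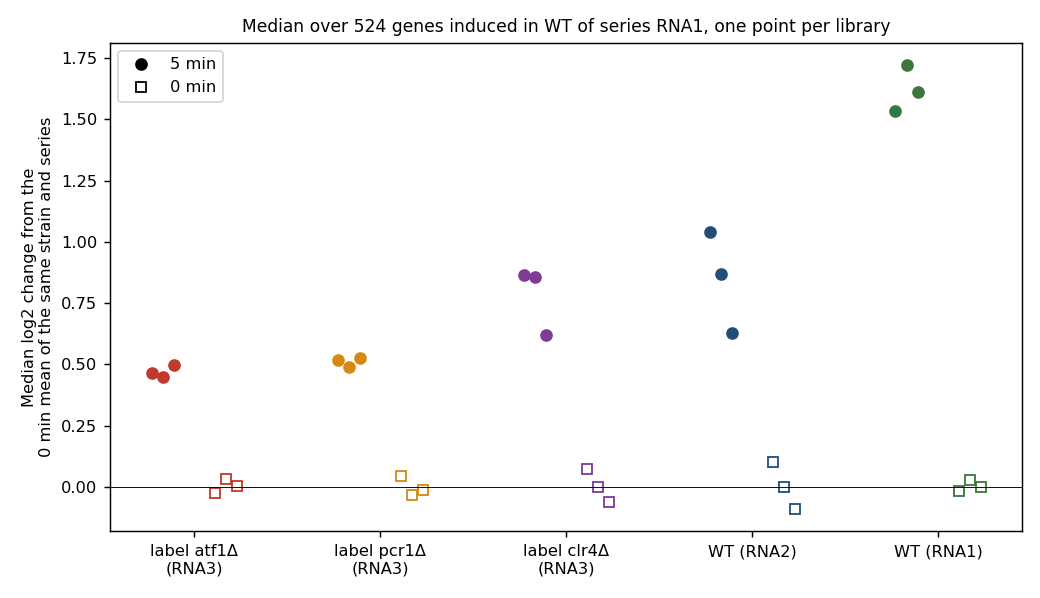
Median log2 change, from the 0 min mean of the same strain and series, over the 524 genes induced in WT of series RNA1, with 1 point per library at 5 min (filled) and 0 min (open). At 5 min the libraries labelled atf1Δ lie at 0.45 to 0.50 and those of WT series RNA2 at 0.63 to 1.04. WT of series RNA1, on which the genes were chosen, is highest.

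Set against WT of series RNA1, the label atf1Δ had a lower response in 767 genes and a higher one in 227. This comparison shares the atf1Δ-labelled libraries with the one above. The WT series themselves differed in response in 573 genes, of which 424 (6.87%) had a higher response and 149 (2.41%) a lower one in series RNA1. With replicate number as a block, since same-numbered 5 and 0 min libraries deviated together in both WT series, 1406 genes differed. ddr48 was the most extreme named gene, at 9.09, 9.70 and 11.3 CPM at 5 min and 17.7, 19.1 and 19.8 CPM at 0 min with the label atf1Δ, against 31.5, 31.2 and 7.73 CPM at 5 min and 6.94, 4.89 and 4.09 CPM at 0 min in WT of series RNA2. In WT of series RNA1 it reached 418, 524 and 461 CPM at 5 min, so its difference was -3.06 ± 0.63 against series RNA2 and -7.68 ± 0.61 against series RNA1. A non-coding RNA on the other strand covers 95.5% of ddr48.

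Series RNA3 also holds strains that carry atf1 by label. Against libraries labelled clr4Δ, which lack by label the heterochromatin methyltransferase Clr4, the label atf1Δ had a lower response in 126 genes (2.04%) and a higher one in 27 (0.437%). Counts for clr4 were not absent there, at 98.1 to 118 CPM at 5 min and 172 to 180 CPM at 0 min with the label clr4Δ. In WT of series RNA2 they were 41.0 to 47.0 CPM at 5 min and 43.2 to 44.7 CPM at 0 min. Which stretch of clr4 the reads came from is not known, so that label could not be checked from them. The difference from the label clr4Δ was -3.95 ± 0.33 for rtc3, -6.89 ± 0.57 for wwm3, -1.68 ± 0.28 for gpx1 and -1.94 ± 0.28 for srk1. For ssa1 it was -0.27 ± 0.34 (adjusted p = 0.771). Both comparisons share the atf1Δ-labelled libraries, but this one is within 1 series name.

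Against libraries labelled pcr1Δ, which lack by label the partner of Atf1, 2 genes differed in response, both lower with the label atf1Δ (0.0324%), by edgeR's quasi-likelihood test. pcr1 counts were 50.2 to 55.3 CPM at 5 min and 37.6 to 47.3 CPM at 0 min with the label pcr1Δ, against 263 to 331 CPM at 5 min and 56.0 to 86.3 CPM at 0 min in WT of series RNA2. At an unadjusted p under 0.05 there were 75 lower and 42 higher. The 2 genes were gsf1 (-0.90 ± 0.17, adjusted p = 0.0268) and SPNCRNA.1548 (-1.05 ± 0.17, adjusted p = 0.00563), named after their values were seen. The count of 2 became 0 without atf1Δ-labelled 5 min library 2, atf1Δ-labelled 0 min library 2, pcr1Δ-labelled 5 min library 1 or pcr1Δ-labelled 0 min library 3. It was 1 without library 3 of the label atf1Δ at either time, library 2 or 3 of the label pcr1Δ at 5 min or its library 1 at 0 min. The difference was -0.21 ± 0.33 for rtc3, -0.29 ± 0.55 for wwm3, 0.20 ± 0.32 for gpx1 and -0.08 ± 0.27 for srk1. A p that misses the threshold does not show that both labels act alike.

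In the promoters, the Atf1 core element TGACGT, read on both strands, was in the 300 bases before the start of 38 of the 107 coding genes with a lower response (35.51%), against 302 of 4972 coding genes tested (6.07%). Among 247 coding genes induced in WT of series RNA1 and not called, 42 had it (17%). The full palindrome TGACGTCA was in 7 of the 107 (6.54%) and 16 of all 4972 (0.32%). The heat shock element GAANNTTC, which is its own reverse complement, was in 14 of the 107 (13.08%), in 42 of the 247 (17%) and in 560 of all (11.26%). The opposite order of blocks, TTCNNGAA, was not searched, so these shares can miss heat shock elements. In 1000 bases TGACGT was in 46.73% of the 107, in 28.34% of the 247 and in 14.92% of all. GAANNTTC was there in 25.23% of the 107, in 40.08% of the 247 and in 34.53% of all. rtc3, pyp2 and ssa1 had no TGACGT within 300 bases and 2 each within 1000. Other genes called lower, namely cta3, mug153, ddr48, SPACUNK4.17, srx1, pcr1, gpx1, pyp1 and mpr1, had none even within 1000 bases. A longer form of the heat shock element, extended by a further GAA block, was rarer within 300 bases. It was in 2 of the 107 (1.87%), in 6 of the 247 (2.43%) and in 24 of all 4972 (0.48%). Its counts in the 107 and the 247 are small, and the gap between them was not tested. A match is only a run of letters, and binding was not analysed here.

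Position and overlap set a limit on single values. Of the 123 genes, 70 overlapped another tested gene on the authors' build and 10 overlapped another of the 123. There were 14 pairs of direct neighbours within the 123, among them SPACUNK4.17 with mug153, srk1 with mug150 and rsv2 with SPBC1105.13c. Overlaps and neighbours were not counted over all tested genes, so these counts do not set the 123 apart from other genes. srk1 shares 638 bases with mug150 and rsv2 shares 1438 bases with SPBC1105.13c, both on opposite strands.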

How the data were processed

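Polyadenylated RNA was sequenced in 39 libraries, in 13 groups of 3, and 12 of them form the comparison. Groups and times were read from the sample titles. The deposited files hold raw counts per gene made by the authors, 1 file per library. Per the submitters' processing notes STAR, Trimmomatic 0.33, deepTools, bedtools 2.17.0 and Bowtie 0.12.9 were used with build ASM294v2. Which strand was counted is not given in the sources used here, so values of antisense and other overlapping genes are uncertain. Reads mapping to several places made up 7.25 to 21.2% of reads, and the 10 most counted genes took 8.48 to 10.6% of counts with the label atf1Δ, against 6.50 to 6.90% in WT of series RNA2. Gene positions in ASM294v2 came from a deposited per-gene file of 1 WT library. Names and promoters came from RefSeq, build ASM294v3, which matched 6845 of 7015 identifiers.

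Counts were fitted in R 4.3.3 with edgeR 4.0.16. Genes passing filterByExpr (minimum count 10, minimum total 15), 6172 in all, were scaled by TMM and fitted over all 39 libraries, 1 coefficient for each group, which left 26 residual degrees of freedom. Each difference of responses was tested 2-sided with the quasi-likelihood F-test, p-values were adjusted over the 6172 genes (Benjamini-Hochberg), and calls were made at adjusted p under 0.05. Errors on fold changes are standard errors. No replicate pair was alike within sampling noise, so each library was counted as 1 replicate. Alternatives were DESeq2 1.42.0, other scalings, no filter, other references, the 12 libraries alone, a replicate block and leaving out each library. Deviations of same-numbered 5 and 0 min libraries correlated at 0.42, 0.41 and 0.48 in WT of series RNA1 and at 0.24, 0.31 and 0.48 in WT of series RNA2, all over 0.1, so numbers were taken to pair libraries where those WT series alone were compared.

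Genes named were atf1 and pcr1, up to 12 each way with the largest difference (adjusted p under 0.05, a mean of at least 10 CPM, the same sign against series RNA1), from each list the 4 genes of smallest p, and 6 induced genes not called. Others are marked as chosen after their values were seen. The members and lists were chosen with earlier results of these data known. Lists were matched by symbol, which took the kinase ssp1 into the chaperones. The written marker list had mam2 and map3 exchanged between mating types.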

Additional observations from a re-analysis of the deposited data

Results flagged for a closer look

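The results below were singled out because the response to heat differed between groups by a test of the difference itself (edgeR's quasi-likelihood test, adjusted p under 0.05). No group had 4 or more libraries, so none was tested for a single library standing apart. Against WT of series RNA2 the label atf1Δ had 123 genes with a lower response and 5 with a higher one. The label atf1Δ differed from the label pcr1Δ in 2 genes.

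The response of WT itself differed between series, with 424 genes higher and 149 lower in series RNA1 than in series RNA2. These counts and the values below are from the fit without replicate number as a block. With that block 1406 genes differed. As log2 differences of series RNA1 minus series RNA2, ddr48 had 4.61, ssa1 3.14, hsp16 2.57, rtc3 2.52, hsp104 2.29 and SPACUNK4.17 2.08. mug153 had 1.96, ish1 1.85, SPAC22F8.05 1.81, gut2 1.80, tps1 1.64, ntp1 1.47, gpd1 1.46 and ctt1 1.38. SPBC11C11.06c had 1.29, gpx1 1.23, atf1 1.04, gst3 0.95, srx1 0.84, rpn6 0.41 and pre3 0.39. pof15 had -1.78.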

How the results depend on the processing

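The counts of lower and higher responses with the label atf1Δ against WT of series RNA2 were 123 and 5. No named gene called in the comparison changed sign under the alternatives run. The DESeq2 test gave 132 lower and 14 higher, and the 12 libraries alone gave 109 lower and 8 higher. With WT of series RNA1 as reference the counts were 767 lower and 227 higher, with the mean of both WT series 490 and 63 (hsp104, hsp16 and tps1 called lower under both), and with the label clr4Δ 27 higher. Leaving out 1 library at a time gave 99 to 145 lower and 4 to 20 higher. In the same way, against series RNA1 the ranges were 596 to 757 lower and 164 to 270 higher, against the label clr4Δ 87 to 178 lower and 15 to 48 higher, between the WT series 389 to 700, and against the label pcr1Δ 0 to 2. Scaling by library totals gave 4 genes against the label pcr1Δ. The count of 27 higher against the label clr4Δ was 48 without clr4Δ-labelled 5 min library 3, 45 without its 0 min library 3, and 15 or 16 without its 5 min library 2 or any 1 of atf1Δ-labelled 5 min library 3 and the 3 atf1Δ-labelled 0 min libraries. Between the WT series, leaving out WT library 3 of series RNA2 at both times, an alternative chosen after seeing the data, gave 370, with 141 lower and 7 higher for the label atf1Δ. The chaperone count of 2 lower became 0 there, and epe1 was called lower (adjusted p = 0.0493). The cause of these shifts was not tested. Without that pair of libraries SPNCRNA.1624, fan1, SPAC1399.02, ssa1 and ssp1 were no longer called.

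With replicate number as a block, hsp104 (adjusted p = 0.00151), hsp16 (0.00156), tps1 (0.00112), gst3, hrr1 and red1 were called lower and mei4 and rpl301 higher, against series RNA2, and 4 chaperone genes were lower. The counts were then 273 lower, which included all 123, and 48 higher against series RNA2. They were 1177 lower and 669 higher against series RNA1, 501 lower and 263 higher against the label clr4Δ, 1406 between the WT series, and 11 in either direction against the label pcr1Δ. The labels do not say that a number pairs libraries. The correlation of deviations between same-numbered 5 and 0 min libraries was 0.46, -0.08 and 0.01 with the label atf1Δ (in WT of series RNA1 and RNA2 and in the label clr4Δ it was 0.24 to 0.48), so the numbers do not pair all libraries of a comparison with the label atf1Δ, and in the label atf1Δ not every library correlated best with its own number.

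Depth limits low genes such as atf21, whose standard error was 1.00 on the log2 scale.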
